A study of Rattus norvegicus with 16 samples.

Results

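The retinoid handling genes examined here are 7 genes of vitamin A metabolism: Rbp4, Lrat, Rdh16, Aldh1a1, Aldh1a7, Cyp26a1 and Rarb. They were found on the array through the RefSeq accession of each probe. Probes of 5 of the 7 genes were found, 7 probes among the 30367 of the array that are no controls, and 5 of these probes, 1 for each gene, were bright enough in liver to be tested among 12072 genes or identifiers. Aldh1a7 and Rarb had no probe under a matching accession and were not analysed here. The second probes of Lrat and Rdh16 were well above background on 0 of 16 arrays and were not tested.

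The samples were livers from 21-day-old male pups of the Sprague-Dawley strain, in 4 groups of 4 arrays, each array holding pooled RNA of 2 pups, so that 8 pups stood for a group. Control pups (C) had dams given corn oil and stayed with them. Cross-fostered control pups (CC) were moved at birth to another control dam. The dams of mixture pups (M) received organochlorine pesticides, polychlorinated biphenyls and methyl mercury in corn oil, 1 mg/kg/day, during gestation and lactation, and these pups stayed with their own dams. Cross-fostered mixture pups (MM) were born to such a dam and nursed by another. Pups were thus exposed only through the dam, the litters behind each pool are not given, and the p-values measure the spread between pools. Each array carried Cy5-labelled liver RNA against a Cy3-labelled universal reference RNA of 14 rat cell lines, with no dye swap. The C and CC arrays filled slide 1 and the M and MM arrays slide 2, so the mixture and the slide cannot be told apart. Cross-fostering was compared within a slide.

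Retinol is stored in the liver as retinyl esters, mostly in stellate cells, and leaves it bound to retinol-binding protein, which hepatocytes secrete. Inside cells, retinol is oxidised reversibly to retinal and then irreversibly to retinoic acid, the ligand of the retinoic acid receptors, and retinoic acid is removed by hydroxylation. Loss of hepatic vitamin A is a long-known effect of dioxin-like compounds in rats.

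The upstream sequences of Aldh1a1 and Cyp26a1 are shown because Aldh1a1 was the gene of the group that differed with the mixture and Cyp26a1 is the textbook target of retinoic acid. Both are the 250 bases before the annotated start of transcription in RefSeq's GRCr8 annotation, 5′ to 3′ on the strand of the gene. Capitals mark CCAAT in Aldh1a1 (chr1:227537370-227537619, plus strand) and a direct repeat of retinoic acid receptor half-sites in Cyp26a1 (chr1:244883572-244883821, plus strand).
Aldh1a1: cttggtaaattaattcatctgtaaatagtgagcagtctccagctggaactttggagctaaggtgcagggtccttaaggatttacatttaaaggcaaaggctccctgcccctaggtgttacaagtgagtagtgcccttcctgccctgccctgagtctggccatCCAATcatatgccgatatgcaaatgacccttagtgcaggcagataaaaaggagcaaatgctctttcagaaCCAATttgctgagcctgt
Cyp26a1: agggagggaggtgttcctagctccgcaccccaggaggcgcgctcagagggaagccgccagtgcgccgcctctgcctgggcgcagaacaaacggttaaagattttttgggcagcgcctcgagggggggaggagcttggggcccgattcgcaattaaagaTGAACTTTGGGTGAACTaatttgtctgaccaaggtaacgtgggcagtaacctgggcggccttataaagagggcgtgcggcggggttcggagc
Both strands of the 250 bases were searched for 5 motifs. The direct repeat was defined as 2 half-sites, each AGGTCA or AGTTCA or GGTTCA, spaced by 5 bases, and single half-sites were counted too, so that each repeat also holds 2 of them. Cyp26a1 held 1 such repeat, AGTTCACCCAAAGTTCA on the minus strand, whose leftmost base on the plus strand lay at -92 from the start. Of the 33469 promoters in the table, 0.293% held a repeat of this kind, and 31.3% held a half-site. Aldh1a1 had neither in this window. Its 2 CCAAT matches, on the plus strand, began at -88 and -18, and 34% of promoters held this motif. The letters GCGTG, the core of the dioxin response element, were found in 25.9% of promoters: 3 times in Rbp4 and once each in Lrat and Cyp26a1, with no match in Aldh1a1 or Rarb. TATAAA was found in 12.9% of promoters, Cyp26a1 and Rbp4 among them. Rarb had no match to any of the 5 motifs. Promoters of 5 of the 7 genes were in the table, and those of Rdh16 and Aldh1a7 were not analysed here.

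Aldh1a1, a retinal dehydrogenase that makes retinoic acid, was about 3.2-fold higher in pups of mixture dams, both those kept with their own dams and those cross-fostered. It was the only tested gene of the group whose difference passed the test in either mixture comparison. Rbp4, Lrat, Rdh16 and Cyp26a1 did not pass it. Cross-fostering gave no call for any of the 5. A gene was called where the adjusted p from limma, with Benjamini-Hochberg adjustment over all 12072 genes, was below 0.05. In M minus C, 1 of 5 members was called, higher, against 20.4% of all tested genes called, 8.19% higher and 12.2% lower. In MM minus CC the count was again 1 of 5, against 20.0% called, 7.83% higher and 12.2% lower. The median difference of the 5 members was 0.02 in M minus C and -0.05 in MM minus CC on the log2 scale, beside -0.05 and -0.06 over all genes. In the reference channel alone, which holds the same RNA on every array, 66.2% of genes were called between the slides in each comparison. Each member is also given in the liver channel alone, where 1.62% of genes were called higher in M minus C and 2.15% in MM minus CC. That channel does not part the mixture from the slide either. It is contained in the ratio, so calls in both measures are not independent of each other.

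**Figure D1:**
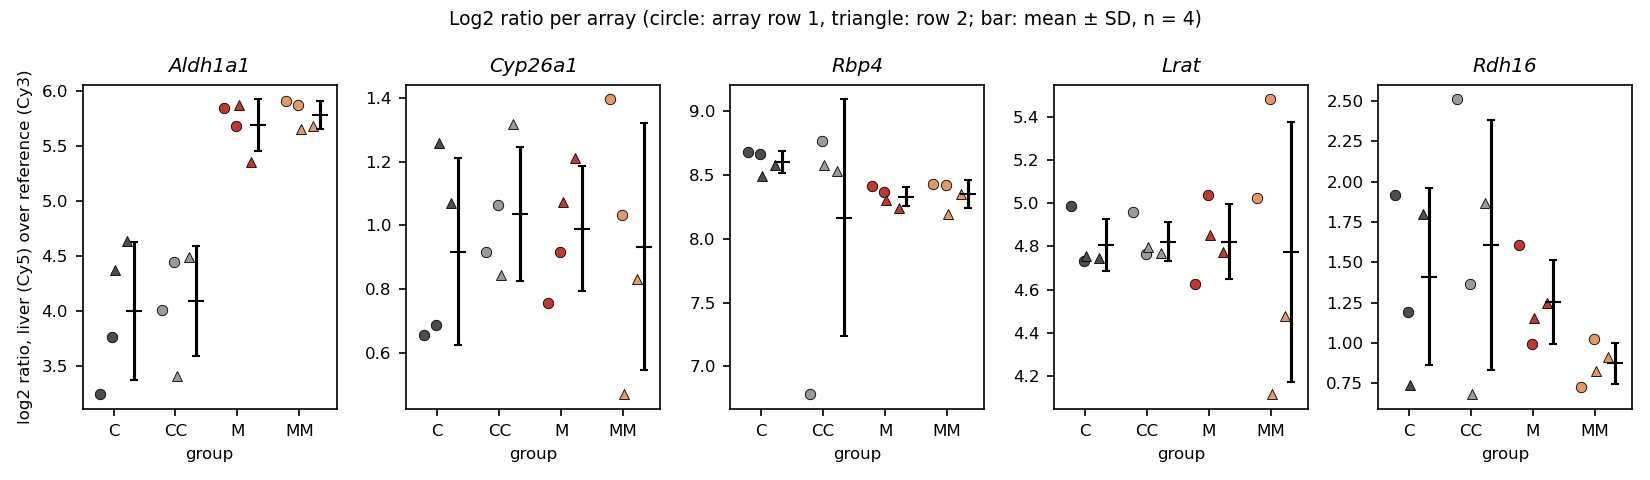
Log2 ratio of liver (Cy5) over reference (Cy3) for the 5 tested genes on each of the 16 arrays, by group; circles are array row 1 and triangles row 2 of a slide, and bars are the mean ± SD of 4 arrays, on an axis scaled for each gene. For Aldh1a1 the 8 mixture arrays (5.35 to 5.91) lie above the 8 control arrays (3.24 to 4.64). The 4 M arrays lie above the 4 C arrays for 9.73% of all genes, and MM above CC for 8.68%. The share for 8 against 8 arrays was not counted. For Rbp4 the array CC 1 stands at 6.78, away from all others.

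Cyp1a1, the classical target of the aryl hydrocarbon receptor, checked the exposure labels: its liver intensity above background was 19.1 to 116 on the control arrays and 1780 to 2890 on the mixture arrays (log2 difference in ratio 5.29 in M minus C and 5.33 in MM minus CC). Hepatocyte markers (8 of 8 measured) had summed Cy5 intensities of 706025 to 1083000 over all arrays, and their mean log2 ratio was 5.42 on CC 1 and 6.58 to 6.94 on the others. Tnnc2, the one skeletal muscle marker of 5 that was measured, had ratios of 4.47 on CC 1 and 4.52 on CC 2 and -1.21 to -0.38 elsewhere. The 2 of 7 exocrine pancreas markers measured, Cpa1 and Ctrb1, had mean ratios of 3.88 on CC 1, 5.02 on CC 2, 2.28 on M 6, 3.15 on MM 1 and 0.87 on M 5, and at most 0.53 elsewhere. Kupffer cell markers (7 of 7 measured) had summed Cy5 intensities of 5492 to 7968 in C, 6024 to 7841 in CC, 3703 to 7360 in M and 3573 to 8008 in MM. In MM minus CC all 7 lay below 0 in the ratio (median -0.32). Marco was called at -0.93 (adjusted p 0.0291, limma), 1 of 7 against 12.2% of all genes called lower. In M minus C 0 were called, and in Cy5 alone 0 in either comparison. The 5 liver endothelial markers measured ran from -0.17 to -0.03 in MM minus CC, around the median of -0.06 over all genes. In M minus C they ran from -0.10 to 0.26, and 0 were called in either comparison. The part of these cells in the results was not tested. The difference in Aldh1a1 between MM and CC was 1.66 without CC 1 and 1.81 without CC 2, both called.

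Rbp4 encodes the plasma carrier of retinol. Its Cy5 intensity above background was 171706, 232336, 131844 and 189594 on C 9 to C 12, 188747, 204472, 194505 and 171476 on CC 1 to CC 4, 135247, 189009, 170293 and 158857 on M 5 to M 8, and 172404, 193010, 131653 and 159464 on MM 1 to MM 4. In this channel the 4 groups overlapped, and none of these spots was saturated. The log2 ratios were 8.68, 8.67, 8.50 and 8.58 in C, 6.78, 8.77, 8.58 and 8.54 in CC, 8.41, 8.37, 8.30 and 8.24 in M, and 8.43, 8.43, 8.20 and 8.35 in MM. All 4 M arrays lay below all 4 C arrays, as for 15.3% of all genes, whereas MM and CC overlapped through CC 1.

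The ratio of Rbp4 differed by -0.27 ± 0.29 (SE) between M and C, with an adjusted p of 0.552 from limma. This SE rests on a spread shared by all groups. The SD was 0.08 in C, 0.07 in M and 0.11 in MM, but 0.93 in CC, the group of CC 1. In the liver channel alone M minus C was -0.05, with a 95% confidence interval of -0.24 to 0.13. Rbp4 was number 10 of 12072 in liver brightness, and quantile normalization gives such a gene a value set by its rank among the brightest: MM 2 and MM 3, at 193010 and 131653, both received 17.47. Reference intensity was 1067 to 1562 on the slide 1 arrays other than CC 1, 4368 on CC 1, and 1553 to 1848 on slide 2. Between MM and CC the ratio differed by 0.19 ± 0.29 (adjusted p 0.703, limma) and Cy5 alone by 0.04 (-0.15 to 0.23). CC 1 decided the sign in the ratio: without it the difference was -0.28 (adjusted p 0.0305, limma), and it was -0.10 with median centring of all arrays in place of loess. A fit to the C and M arrays alone kept -0.27 for M minus C and gave an adjusted p of 0.0288 (limma). The Cy5 intervals of Rbp4 therefore cover its place among the brightest genes and set no bound on its signal.

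CC 1 stood apart in the reference channel, for Rbp4 and for other genes that are bright in liver. Among the 120 genes with the highest liver signal, 27 had a reference signal on CC 1 more than 1 log2 unit above the median of the other 7 arrays of the slide, and on each of the other 15 arrays there were 0. For Rbp4 this excess was 1.52, and for Aldh1a1 it was 0.38. CC minus C in Rbp4 was -0.44 ± 0.29 with CC 1 and 0.02 without it, and neither passed the test (adjusted p 0.9998 and 0.9999, limma). The part of this array in other results was not tested beyond leaving it out.

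**Figure D2:**
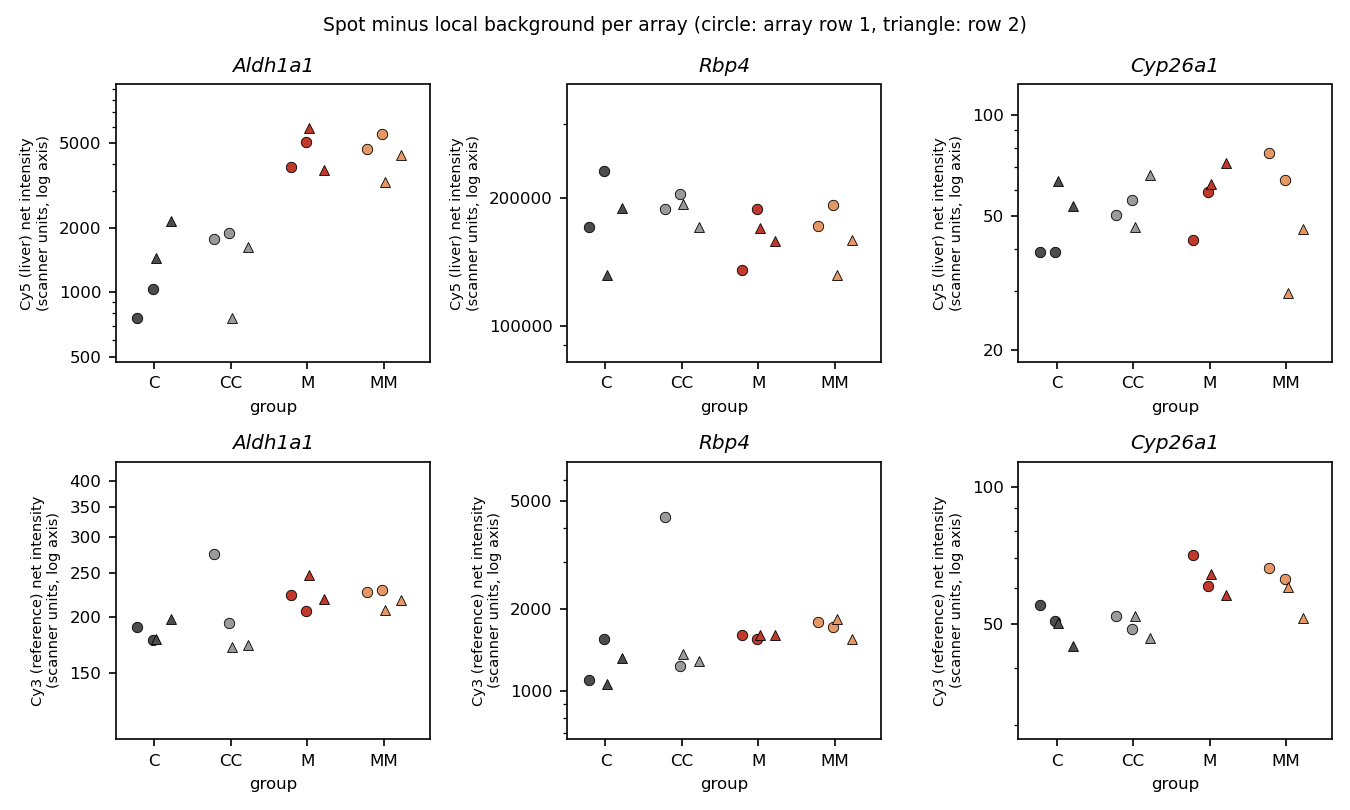
Intensity above local background in the liver channel (top, Cy5) and the reference channel (bottom, Cy3) for Aldh1a1, Rbp4 and Cyp26a1 on each array, in scanner units on log axes. Aldh1a1 rises in the liver channel from 757 to 2168 on control arrays to 3282 to 5907 on mixture arrays, while CC 1 stands at 4368 in the reference channel for Rbp4.

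Lrat encodes the enzyme that esterifies retinol for storage, in liver mainly in stellate cells. Its liver intensity was 658, 575, 515 and 552 in C, 672, 553, 549 and 527 in CC, 458, 733, 590 and 585 in M, and 582, 871, 370 and 451 in MM. The log2 ratios were 4.99, 4.73, 4.75 and 4.75 in C, 4.96, 4.77, 4.80 and 4.77 in CC, 4.62, 5.04, 4.85 and 4.78 in M, and 5.03, 5.48, 4.12 and 4.48 in MM. The groups overlapped throughout, and the MM arrays were spread most widely (SD 0.60, against 0.09 to 0.17 in the other groups), with the row 1 arrays of the slide above the row 2 arrays.

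The reference held Lrat well above background on 0 of 16 arrays, so its ratio rests on the liver channel. M minus C was 0.02 ± 0.20 (adjusted p 0.968, limma; 95% interval -0.41 to 0.45) and MM minus CC was -0.05 ± 0.20 (adjusted p 0.902; -0.48 to 0.38). In Cy5 alone they were 0.05 (adjusted p 0.898, limma) and 0.13 (adjusted p 0.678), so the sign of MM minus CC differed between the measures. Within array row 1, MM minus CC was 0.39 (adjusted p 0.26), and within row 2 it was -0.48 (adjusted p 0.0471), with 2 arrays per group in each. In whole liver, fewer cells of a type and less RNA per cell cannot be told apart. Of 14 stellate cell markers 10 were measured, and Ngfr, Hand2 and Gfap were too dim. The mean ratio of the 10 ranged from -0.29 to 0.01 in C, -0.29 to 0.13 in CC, -0.27 to 0.02 in M and -0.25 to -0.10 in MM, ranges that overlapped as those of Lrat did. The single genes went both ways, from -0.44 to 0.38 in M minus C and from -0.65 to 0.53 in MM minus CC. In the ratio Reln was called higher in both comparisons (0.38 and 0.53), 1 of 10 against 8.19% and 7.83% of all genes. Lhx2 was called lower in M minus C (-0.44), 1 of 10 against 12.2% of all genes. In Cy5 alone 0 of the 10 were called.

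Rdh16 encodes a microsomal dehydrogenase that oxidises retinol to retinal. Its liver signal was weak, with intensities above background of 101, 55.3, 31.8 and 88.5 in C, 157, 63.5, 31.5 and 88.3 in CC, 75.5, 48.3, 51.5 and 63.0 in M, and 31.5, 52.0, 37.5 and 40.0 in MM. Log2 ratios were 1.92, 1.19, 0.74 and 1.80 in C, 2.51, 1.37, 0.68 and 1.87 in CC, 1.61, 1.00, 1.16 and 1.25 in M, and 0.73, 1.03, 0.82 and 0.92 in MM. The 4 MM arrays lay close together (SD 0.13) and the control arrays far apart (SD 0.55 in C and 0.77 in CC), and every pair of groups compared overlapped.

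Between MM and CC, Rdh16 differed by -0.73 ± 0.31 in the ratio, a fold of 0.602, and this did not pass the test (adjusted p 0.106, limma). In Cy5 alone the difference was -0.36 (adjusted p 0.419; 95% interval -0.78 to 0.05). With 1 array left out the difference ran from -0.43 without CC 1, the highest of its group (adjusted p 0.301), to -1.04 without CC 3, the lowest (adjusted p 0.0179). Of 21 alternatives 2 made the call, the one without CC 3 and the scanner software's own ratio (-1.33, adjusted p 0.0337, limma). M minus C was -0.16 ± 0.31 (adjusted p 0.76), MM minus M was -0.38 ± 0.31 (adjusted p 0.999), and the difference between the mixture effects of cross-fostered and own-dam pups was -0.57 ± 0.44 (adjusted p 0.9995). In Cy5 alone M minus C was -0.07 (adjusted p 0.914, limma). The reference gave a signal well above background on 4 of 16 arrays.

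Aldh1a1 had liver intensities above background of 763, 1038, 1457 and 2168 on C 9 to C 12 and of 1779, 1900, 757 and 1629 on CC 1 to CC 4. In the mixture groups they were 3875, 5058, 5907 and 3758 on M 5 to M 8 and 4716, 5560, 3282 and 4422 on MM 1 to MM 4. The lowest mixture array was brighter than the highest control array, and within each dam treatment the own-dam and cross-fostered arrays overlapped. Log2 ratios were 3.24, 3.76, 4.37 and 4.64 in C, 4.01, 4.45, 3.41 and 4.49 in CC, 5.84, 5.68, 5.87 and 5.35 in M, and 5.91, 5.87, 5.65 and 5.68 in MM. In the ratio, too, all 8 mixture arrays stood above all 8 control arrays. The 4 M arrays stood above the 4 C arrays for 9.73% of genes, and MM above CC for 8.68%. How many genes separated 8 from 8 arrays, in the ratio or in liver intensity, was not counted.

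The group means of the Aldh1a1 ratio were 4.0 ± 0.63 in C, 4.09 ± 0.50 in CC, 5.69 ± 0.24 in M and 5.78 ± 0.13 in MM (SD, n = 4 arrays). In this order C and CC, and M and MM, did not differ beyond their spread, and the step lay between the control and the mixture groups. M minus C was 1.69 ± 0.26 (SE), a 3.22-fold difference, with an adjusted p of 0.000385 (limma) and a 95% interval of 1.12 to 2.25. MM minus CC was 1.69 ± 0.26, 3.23-fold, with an adjusted p of 0.000439 and an interval of 1.13 to 2.25. These comparisons share no array, but they do share the slides.

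In the liver channel alone Aldh1a1 was higher by 1.82 in both comparisons, 3.54-fold in M minus C (adjusted p 0.00274, limma) and 3.53-fold in MM minus CC (adjusted p 0.00326). Calls upwards in both the ratio and Cy5 alone were made for 0.936% of all genes in M minus C and 1.10% in MM minus CC, and Aldh1a1 was among them in each. Its reference intensity was 171 to 276 on slide 1 and 206 to 247 on slide 2, and reference alone differed by 0.18 (adjusted p 0.0471) and 0.12 (adjusted p 0.157). Aldh1a7 is a close copy of Aldh1a1 in rodents, and how much of its RNA the Aldh1a1 probe takes up was not tested.

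The values within array rows rest on 2 arrays per group, and the difference between rows was not tested. M minus C in Aldh1a1 was 2.26 within row 1 (adjusted p 0.00225, limma) and 1.11 within row 2, where it was not called (adjusted p 0.0817); C 11 and C 12 were brighter than C 9 and C 10. In Cy5 alone the row values were 2.43 (adjusted p 0.000546) and 1.21 (adjusted p 0.306). MM minus CC was 1.66 within row 1 and 1.72 within row 2, both called, and in Cy5 alone 1.63 (adjusted p 0.00215) and 2.01 (adjusted p 0.0545).

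Cross-fostering left Aldh1a1 without a call. CC minus C was 0.09 ± 0.26 (95% interval -0.47 to 0.65) and MM minus M was 0.09 ± 0.26 (-0.47 to 0.65), so these arrays allow differences of up to 0.65 on the log2 scale upwards and 0.47 downwards. The difference between the mixture effects with and without cross-fostering was 0.005 ± 0.37 (-0.79 to 0.80). Over all 12072 genes limma called 0 in CC minus C, 0 in MM minus M and 0 in that difference of effects, with 336, 275 and 349 genes at an unadjusted p below 0.05. Within the rows, CC minus C in Aldh1a1 was 0.73 in row 1 and -0.56 in row 2, neither called (adjusted p 0.768 and 0.9998).

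**Figure D3:**
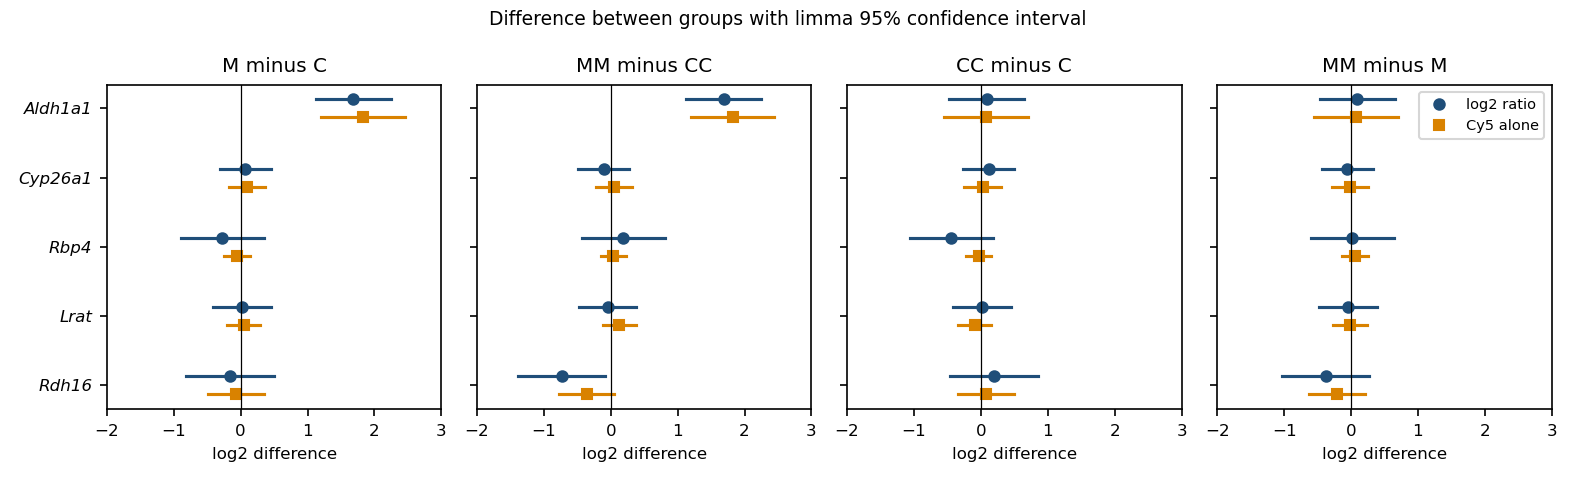
Differences between groups for the 5 tested genes on the log2 scale, with limma 95% confidence intervals, for the ratio (circles) and for Cy5 alone (squares). The Aldh1a1 intervals lie above 0 in M minus C and MM minus CC on both measures, and all of its intervals for cross-fostering cross 0; the Rdh16 ratio interval in MM minus CC (-1.39 to -0.08) excludes 0 before adjustment over genes.

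Cyp26a1 encodes the hydroxylase that clears retinoic acid and is itself induced by it. Its liver intensity was low, at 39.0, 39.3, 63.8 and 53.5 in C, 50.3, 55.8, 46.5 and 66.5 in CC, 42.5, 59.0, 62.3 and 72.0 in M, and 77.0, 64.0, 29.5 and 45.8 in MM. It was well above background on 15 of 16 arrays. Log2 ratios were 0.66, 0.69, 1.26 and 1.07 in C, 0.91, 1.06, 0.84 and 1.32 in CC, 0.76, 0.92, 1.07 and 1.21 in M, and 1.40, 1.03, 0.47 and 0.83 in MM. All 4 groups overlapped, with means from 0.92 to 1.03.

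M minus C in Cyp26a1 was 0.07 ± 0.18 (adjusted p 0.818, limma; 95% interval -0.31 to 0.45), and MM minus CC was -0.10 ± 0.18 (adjusted p 0.738; -0.48 to 0.28). In Cy5 alone they were 0.09 (-0.18 to 0.36) and 0.05 (-0.23 to 0.32). On this log2 scale, rises above 0.45 lay outside each of these intervals, the amount seen in Aldh1a1 among them. Rises of up to 0.28 lay inside each. Background correction added an offset of 50, while the liver intensity of Cyp26a1 was 29.5 to 77, so log2 differences at this level are shrunk. The intervals therefore set no bound on the change in Cyp26a1 RNA itself. In both mixture comparisons the reference signal of Cyp26a1 was called higher on slide 2, by 0.18 (adjusted p 5.53e-05) and 0.16 (adjusted p 0.000155).

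A wider set of 79 retinoid genes in 6 lists was counted apart from the members. Of these, 68 had a probe and 50 were tested. In the ratio, 4 were called higher and 1 lower in M minus C (background 8.19% and 12.2%), and 3 higher and 2 lower in MM minus CC (7.83% and 12.2%). In both the ratio and Cy5 alone, 2 of the 50, Cyp2c7 and Ces1f, were called, and they were called higher in each mixture comparison (background 0.936% and 1.10%). The median of the 50 was 0.05 in M minus C and -0.003 in MM minus CC. In CC minus C and MM minus M, 0 of the 50 were called.

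Among retinoic acid hydroxylases, 4 of 5 genes were tested and 1 was called higher in each mixture comparison, against 8.19% and 7.83% of all genes. That gene was Cyp2c7, an enzyme that hydroxylates retinoic acid. Its liver intensity was 246 to 769 on control arrays and 2122 to 10271 on mixture arrays. The ratio rose by 2.34 ± 0.27 in M minus C (adjusted p 2.44e-05, limma) and by 2.72 ± 0.27 in MM minus CC (adjusted p 7.83e-06). In Cy5 alone Cyp2c7 rose by 3.97 and 3.78, and its reference signal also stood higher on slide 2, by 1.63 and 1.09. Within slide 2 the mean log2 reference signal was 8.85 in M and 8.33 in MM, where mean liver intensity was 9485 and 5299. A higher reference signal lowers the ratio, and the cause of these reference differences was not tested. Of its other 2 probes, 1 had ratios of 1.75 to 3.47 on control arrays and 5.02 to 6.18 on mixture arrays. The last probe had 0.74 to 2.19 and 3.38 to 5.86. Cyp2c genes are alike in sequence, and what the probes share with other Cyp2c RNAs was not tested.

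Of 21 transport and storage genes 16 were tested, and 1 was called higher in each mixture comparison, against 8.19% and 7.83% of all genes. It was Ces1f, of a carboxylesterase family that includes retinyl ester hydrolases. Its liver intensity was 768 to 1097 on the control arrays and 1289 to 2093 on the mixture arrays. The ratio rose by 0.83 ± 0.11 (1.78-fold, adjusted p 8.35e-05, limma) in M minus C and by 0.70 ± 0.11 (1.63-fold, adjusted p 0.000421) in MM minus CC. Cy5 alone gave 0.91 and 0.80, both called. Ttr, the plasma partner of Rbp4, was not called, with ratio differences of -0.42 and 0.22 and Cy5 differences of -0.02 and 0.02. The median of the 16 was 0.13 in M minus C and 0.15 in MM minus CC.

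The oxidoreductases of retinol and retinal, 13 of 23 tested, had 2 genes called higher in M minus C and 0 in MM minus CC. Of all genes, 8.19% and 7.83% were called higher. Dhrs3, which reduces retinal to retinol, was higher by 0.38 ± 0.10 in M (adjusted p 0.011, limma), against 0.21 in MM minus CC (adjusted p 0.145). Retsat, which saturates retinol, was higher by 1.17 ± 0.40 in M (adjusted p 0.0494) and differed by -0.01 in MM minus CC; its M ratios were 1.72, 2.80, 0.51 and 2.70, so M 7 lay within the C range of 0.10 to 1.16. The Retsat call in M minus C was lost in 13 of 20 alternatives, among them 7 of the 8 that leave out an array, the series table (adjusted p 0.054) and the fit without a filter (0.0775, limma); without M 7 it was 1.65. The Dhrs3 call was lost in 4 of 20. Neither was called in Cy5 alone, and for neither did the difference between the mixture effects pass the test (adjusted p 0.9995 for both). Of 5 retinal dehydrogenases and oxidases other than Aldh1a1 and Aldh1a7, 2 were tested and 0 were called; Aox1 differed by 0.44 and 0.45.

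Receptors and their partners, 9 of 13 tested, gave 0 calls in M minus C, against 20.4% of all genes. In MM minus CC 1 was called lower, against 12.2% of all genes. The call was Ppard, a nuclear receptor, at -0.32 ± 0.10 (adjusted p 0.0421, limma), against -0.21 in M minus C (adjusted p 0.163). In Cy5 alone Ppard differed by -0.13 in MM minus CC (adjusted p 0.5, limma) and by -0.04 in M minus C (adjusted p 0.851). Its mean log2 reference signal was 7.23 in C and 7.25 in CC, and 7.48 in M and 7.44 in MM. Ppard was dim, well above background on 11 of 16 arrays, and its second probe had overlapping ratios of 0.03 to 0.49 in MM and 0.25 to 0.43 in CC; the mean of both probes gave -0.19 (adjusted p 0.0901). Its call was lost in 14 of 20 alternatives, 7 of the 8 that leave out an array among them. Rara, Rarg and Rxra were tested and not called. Of 12 retinoic acid responsive genes 6 were tested. In each mixture comparison 1 was called lower, against 12.2% of all genes. In MM minus CC 1 was called higher, against 7.83%. Rai14, named for its induction by retinoic acid, was lower by 0.45 and 0.55 in the ratio (adjusted p 0.0203 and 0.00618), but by 0.10 and 0.23 in Cy5 alone, not called, with its reference signal up by 0.32 and 0.30 on slide 2. Rarres1, the retinoic acid receptor responder, differed by 0.33 (adjusted p 0.0678) and rose by 0.42 (adjusted p 0.0261); in Cy5 alone it was not called. In MM minus CC its call was lost in 9 of 21 alternatives, and median centring gave 0.21 (adjusted p 0.347, limma).

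**Figure D4:**
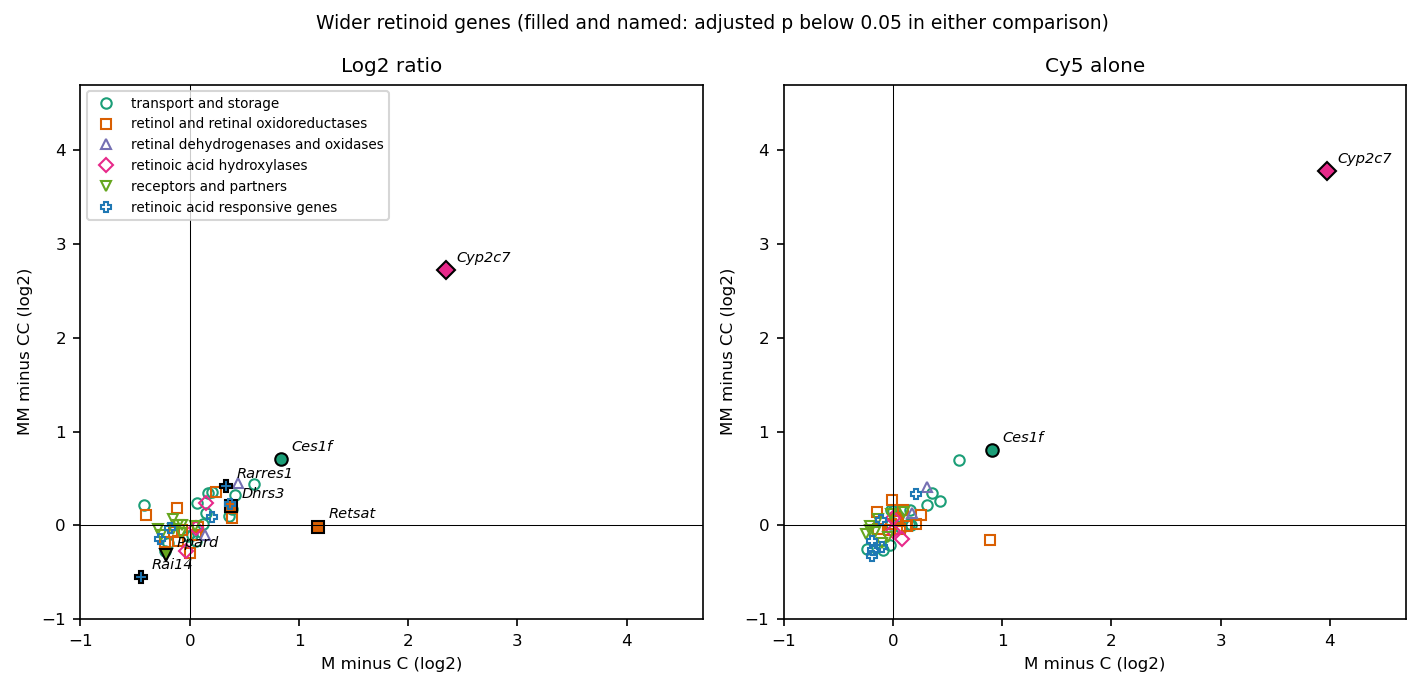
Differences of the 50 tested genes of the wider lists in M minus C (horizontal) and MM minus CC (vertical), in log2 units, for the ratio (left) and Cy5 alone (right); filled, named points had an adjusted p below 0.05 in either comparison. Cyp2c7 (2.34 and 2.72 in the ratio) and Ces1f (0.83 and 0.70) are the named points on both sides, and most other genes lie near 0.

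Genes whose ratios followed those of a member most closely over the 16 arrays were ranked by Pearson correlation, as a description, since arrays of a group share treatment and slide. For each member the 3 highest were picked from the 7895 tested genes with a symbol. How high such a pick reaches by chance was not tested. For Aldh1a1 they were Rpn2 (0.96), Ces1f (0.95) and Ddx46 (0.95), and after each group's mean was subtracted the values were 0.78, 0.67 and 0.66. For Rbp4 they were Ttr (0.99), Itih3 (0.99) and Tf (0.98), which fell to 0.93, 0.90 and 0.86 without CC 1. For Lrat they were Trnau1ap (0.89), Sfmbt1 (0.86) and Kcnk5 (0.85), for Rdh16 Mex3b (0.89), Np4 (0.84) and Defa5 (0.83), and for Cyp26a1 Guf1 (0.76), Zbtb39 (0.70) and Zc3hc1 (0.69). Among the 5 members themselves the correlations of ratios ran from -0.47 (Rbp4 and Rdh16) to 0.42 (Cyp26a1 and Lrat).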

How the data were processed

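Liver RNA of 4 groups of 4 pools was measured on 16 dual-colour arrays. Per the file headers, the authors used Agilent Feature Extraction 11.0.1.1. The deposited scanner files give median spot and background intensity for Cy5 and Cy3, and a log10 ratio made by the scanner software, used as an alternative. Log2 ratios (Cy5 over Cy3) in the deposited series table, whose normalization is not given in the sources used here, had medians of -0.05 to -0.04 per array and served as another alternative.

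Background was corrected by normexp (offset 50), and ratios were loess-normalized within arrays, with control spots at weight 0 and outlier spots left out. Repeat spots were averaged. The filter kept probes whose Cy5 the scanner software marked well above background in 3 or more arrays of any group, 13262 of 30367. Names came from a GRCr8 RefSeq table (18005 probes), and the brightest probe stood for a gene. A model with 1 mean per group was fitted to 16 arrays with limma 3.58.1 (R 4.3.3, data.table package 1.17.8, jsonlite 2.0.0; 12 residual and 3.95 prior degrees of freedom), 2-sided, with Benjamini-Hochberg adjustment. Cy5 alone was log2, quantile-normalized between arrays. The design named mean spot signals, but the files hold medians, which were used. The pipeline was tested on simulated data.

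Median Cy5 intensity was 87 to 102 over a background of 67 to 73, and 4 arrays a group limit the precision. The members and lists were chosen with earlier results of these data known. Named are all members, every called gene of the wider lists, the exposure check and the 3 most correlated genes of each member; Ttr, Aox1, Rara, Rarg, Rxra, Reln, Lhx2 and Marco were named after their values were seen.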

Additional observations from a re-analysis of the deposited data

Results flagged for a closer look

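In 5 of 60 sets of 4 arrays (5 genes, 4 groups, 3 measures), 1 array lay farther from the others than Dixon's criterion at 95% allows; chance flags about 1 set in 20. On CC 1, the Rbp4 ratio was 6.78 (8.54 to 8.77 on the other CC arrays) and its log2 reference signal was 12.02 (others 10.34 to 10.55). Lrat had a ratio of 4.99 on C 9 (others 4.73 to 4.75) and of 4.96 on CC 1 (others 4.77 to 4.80). On CC 3 the log2 liver signal of Aldh1a1 was 9.60 (others 10.62 to 10.76), the lowest of its group.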

How the results depend on the processing

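In M minus C, the call of Aldh1a1 held in 28 of 30 alternatives, with values from 1.11 to 2.43; it was lost within array row 2, in the ratio and in Cy5 alone. In MM minus CC it held in 30 of 31, from 1.46 to 2.01, and was lost in Cy5 alone within row 2. Cy5 alone with an array left out or within a row was chosen after seeing the data. Main counts were 2459 genes called in M minus C and 2419 in MM minus CC, of which 40.2% and 39.1% were higher. Cy5 alone called 267 and 310 (73.4% and 83.5% higher), row 1 837 and 591, row 2 705 and 1210, and the scanner's ratio 4024 and 3957. In MM minus CC, median centring called 4936 (17.6% higher) and moved the median of all genes from -0.06 to -0.19, fitting only the groups compared called 1547, and the series table gave 52.0% higher. Row 1 called 24 genes in CC minus C, 1 in MM minus M and 19 in the difference of effects, against 0. With no single array left out, the sign of a member's difference turned 27 times, never with a call: 17 times by less than 1 SD of the arrays, and 10 times by more, all within rows. These 10 were, within row 1, Cyp26a1 in MM minus CC (0.23) and MM minus M (0.38), Lrat in MM minus CC (0.39), MM minus M (0.42) and the difference of effects (0.42), and Aldh1a1 in the difference of effects (-0.60). Within row 2 they were Aldh1a1 in CC minus C (-0.56) and Rbp4 in CC minus C (0.020), MM minus CC (-0.28) and the difference of effects (-0.016). With 1 array left out, Rbp4 ranged from -0.64 to 0.023 in CC minus C, from -0.28 to 0.39 in MM minus CC and from -0.0012 to 0.66 in the difference of effects. Without CC 1 these were 0.023, -0.28 and -0.0012. The cause of these changes was not tested. CC and MM share numbers 1 to 4 in the labels, but deviations of same-numbered arrays correlated at 0.34, 0.06, 0.19 and 0.11, and 2 of 4 arrays correlated best with their own number, so the numbers were not taken as a pairing. With the number as a replicate block, 2000 genes were called, Aldh1a1 at 1.69 (adjusted p 0.00479), while Ppard (adjusted p 0.0915) and Rarres1 (adjusted p 0.0809) were not. Signal limits Cyp26a1, Rdh16 and Ppard, which lay near background.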
